A study of Mus musculus with 8 samples.

Results

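The 8 mouse testis samples of the series carry replicate numbers in their titles, and the 4 samples numbered 3 and 4 were compared with the 4 numbered 1 and 2, with genotype as a covariate. All 8 samples of the 8 in the series were used. Each set held 2 wild-type and 2 mutant mice, so genotype was balanced between the sets. By title the controls are wild type, but the genotype label of the same samples gives Brwd1+/-. The mutants are Brwd1-/-. Brwd1 encodes a protein with bromodomains and WD repeats that binds chromatin. All mice were 27 days old and untreated, and RNA came from whole testes, 1 Affymetrix array per mouse. The labels name no batch, dissection or date that sets replicates 3 and 4 apart from 1 and 2. They mention no epididymis and no other tissue beside the testis.

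The testis makes sperm in seminiferous tubules, where germ cells pass from spermatogonia through meiosis to round and then elongating spermatids, supported by Sertoli cells. Leydig cells, vessels and macrophages lie between the tubules. Sperm leave through the efferent ducts into the epididymis, a coiled duct that lies against the testis and next to a fat pad. Its segments, the initial segment, caput, corpus and cauda, each secrete their own set of proteins. These include lipocalins, beta-defensins and cystatins, and most of them depend on androgen or on factors in the fluid from the testis. The epididymal epithelium holds principal, clear and basal cells and is wrapped in smooth muscle.

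The genes that set the samples apart most were genes of the epididymal duct. Lcn8 and Lcn5, which encode secreted lipocalins, and Rnase10, which encodes a secreted member of the ribonuclease family without known ribonuclease activity, lay at intensities under 100 in all 4 samples of replicates 1 and 2. The same genes lay between 7954 and 13710 in all 4 samples of replicates 3 and 4. Lcn8 and Lcn5 are neighbours in the order of the 11 lipocalin genes of mouse chromosome 2, of which 8 were measured, and Rnase10 lies on chromosome 14. Their promoters, from 250 bases before to 50 bases after the annotated start, are shown because these 3 genes had the largest differences among the epididymal lists. They come from RefSeq for GRCm38.p6, lie on the + strand at chr2:25652868-25653167 for Lcn8, chr2:25657702-25658001 for Lcn5 and chr14:51007501-51007800 for the first of 2 start sites of Rnase10, and are written 5′ to 3′. Capitals mark matches on either strand to TGTTCT, which reads AGAACA on the other strand and is a short form of the androgen receptor site. They also mark AGGAAG, on the other strand CTTCCT, the core of ETS factor sites, and TATAAA, on the other strand TTTATA, the TATA box.
Lcn8: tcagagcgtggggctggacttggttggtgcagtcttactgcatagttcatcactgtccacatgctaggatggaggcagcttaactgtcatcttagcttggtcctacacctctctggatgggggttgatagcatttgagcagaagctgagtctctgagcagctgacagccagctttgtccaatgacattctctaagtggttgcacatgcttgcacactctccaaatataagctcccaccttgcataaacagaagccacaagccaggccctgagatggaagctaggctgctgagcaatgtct
Lcn5: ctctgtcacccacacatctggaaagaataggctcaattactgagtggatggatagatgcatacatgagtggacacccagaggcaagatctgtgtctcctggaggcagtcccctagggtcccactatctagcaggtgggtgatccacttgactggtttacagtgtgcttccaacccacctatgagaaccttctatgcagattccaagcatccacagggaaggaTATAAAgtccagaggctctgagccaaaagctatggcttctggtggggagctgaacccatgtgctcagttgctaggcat
Rnase10: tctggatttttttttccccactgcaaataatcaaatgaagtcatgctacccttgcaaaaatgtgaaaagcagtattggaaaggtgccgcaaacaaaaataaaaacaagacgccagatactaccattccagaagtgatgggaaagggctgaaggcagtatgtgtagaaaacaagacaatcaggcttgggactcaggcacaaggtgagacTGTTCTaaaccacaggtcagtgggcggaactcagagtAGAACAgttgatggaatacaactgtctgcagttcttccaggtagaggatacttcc

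Lcn8 held none of the 3 motifs, Lcn5 held 1 TATAAA, and Rnase10 held TGTTCT and AGAACA. Of 32817 promoters of this length, 19.0% held TGTTCT, 35.4% held AGGAAG and 13.6% held TATAAA. A promoter was matched for 11 of 19 epididymal genes looked up. At the first start site of each, TGTTCT lay in 6 of them, AGGAAG in 3 and TATAAA in 1. A match describes the letters in this window and does not show a site in use.

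Intensities are on a linear scale set to a common trimmed mean of 500 per array. Differences are replicates 3 and 4 minus replicates 1 and 2 on the log2(intensity + 16) scale, which understates the change of dim genes. They carry the standard error (SE) of the limma fit, and a gene passed the test at a Benjamini-Hochberg adjusted p under 0.05 over all 18193 genes. The split and the marker genes were chosen with earlier results of these data known. The adjusted p-values therefore describe the differences and are no independent support for them. Values by sample are given in the order wild-type 1, wild-type 2, mutant 1, mutant 2, and then wild-type 3, wild-type 4, mutant 3, mutant 4. Because RNA was taken from whole tissue, fewer cells of a type and less RNA per cell cannot be told apart. No detection calls come with the intensities, so a low value cannot be placed above or below background.

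Over all genes, 32.3% passed the test: 3166 genes (17.4%) were higher in replicates 3 and 4 and 2710 (14.9%) were lower. The 4 and 4 samples did not overlap at all for 15.9% of genes on the higher side and 14.5% on the lower side. Large differences lay mostly on one side, since 1138 passing genes were at least 2-fold higher and 68 were at least 2-fold lower. The median difference of all genes was 0.03. With each array centred on its own median, the median difference of all genes was -0.22, and 1951 genes were higher and 4845 lower. Genes higher made up 53.9% of those that passed as deposited and 28.7% after this centring, so small differences in either direction depend on the scaling. The first principal component took 44.5% of the variance and separated replicates 3 and 4 (29.7 to 48.2) from replicates 1 and 2 (-50.8 to -31.5). Each array's median intensity lay between 111.8 and 124.1 in replicates 3 and 4 and between 90.7 and 103.0 in replicates 1 and 2. All 24 probe sets of the spiked poly-A controls, RNAs that are added to a sample before labelling, were lower in replicates 3 and 4, by 2.06 to 6.86 on the log2 scale. Their means ran from 92.6 to 2333 in replicates 1 and 2 and from 3.46 to 24.3 in replicates 3 and 4. The 18 hybridization control probe sets were lower by 0.31 to 0.90. These control values differed between the sets together with the genes described here, and their part in the results was not tested. Brwd1 read 303.9, 222.0, 305.7 and 328.6 in the wild-type samples 1 to 4 and 413.4, 436.1, 324.3 and 286.9 in the mutant samples 1 to 4. The sources used here do not say whether its probe set lies in the altered part of the gene, so these values do not check the labels.

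Genes of the initial segment, the part of the epididymis nearest to the testis, were higher in replicates 3 and 4 for 6 of the 6 measured, with a median difference of 4.98. Lcn8 read 22.6, 81.8, 24.5 and 38.1 in replicates 1 and 2, against 11500, 12110, 12420 and 12730 in replicates 3 and 4. Its difference was 7.83 (SE 0.26, adjusted p = 7.2e-07). Rnase10 read 29.0, 48.9, 49.6 and 34.2 against 7954, 8692, 9069 and 9429. This gave a difference of 7.30 (SE 0.14, adjusted p = 2.4e-08). Neither gene came near an overlap, and the 4 high samples differed from each other far less than from the low ones. Lcn9, another lipocalin of this segment, read 27.5, 11.6, 43.8 and 52.6 against 2919, 3695, 3032 and 3376 (difference 6.11, SE 0.23). Adam28, a membrane protease of the ADAM family, was higher by 3.85 and Ros1, a receptor tyrosine kinase needed for the differentiation of the initial segment, by 1.56. Etv4, an ETS transcription factor, was the smallest of the 6 at 0.78 (adjusted p = 0.032), at 4.93 to 15.5 against 20.1 to 39.7. Its adjusted p was 0.10 without mutant replicate 3, and its other probe set differed by 0.09 and did not pass. Under quantile normalization, median centring or the mean of all probe sets of a gene, 5 of the 6 genes were higher.

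In the caput list 5 of 6 measured genes were higher, with a median difference of 6.53. Lcn5 read 43.1, 49.1, 92.2 and 9.68 against 12110, 10640, 12720 and 13710, a difference of 7.74 (SE 0.36, adjusted p = 3.1e-06). Gpx5, a glutathione peroxidase secreted onto sperm, read 59.7, 389.4, 79.7 and 54.3 against 16670, 14310, 16930 and 17600. Its difference was 7.09 (SE 0.46, adjusted p = 3.5e-05). Wild-type replicate 2 stood above the other low samples for Gpx5 and Lcn8, and far below the lowest sample of replicates 3 and 4. Cst11, a cystatin-type protease inhibitor, read 38.2, 26.6, 52.4 and 7.52 against 3659, 4484, 4203 and 4644 (difference 6.60, SE 0.29). Adam7, a membrane protein passed from the epididymis to sperm, read 91.2, 43.5, 92.0 and 23.4 against 4460, 6146, 7484 and 7952 (difference 6.46, SE 0.33). Adam7 varied more among the high samples than the others, with wild-type replicate 3 lowest. Lcn12 was higher by 3.08. Eppin, a protease inhibitor made in the testis as well as the epididymis, read 4574 to 6077 against 5457 to 6082 and did not pass (0.17, adjusted p = 0.14). Under a filter that keeps genes whose lowest sample is above the 40th percentile, Eppin alone remained of this list.

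**Figure D1:**
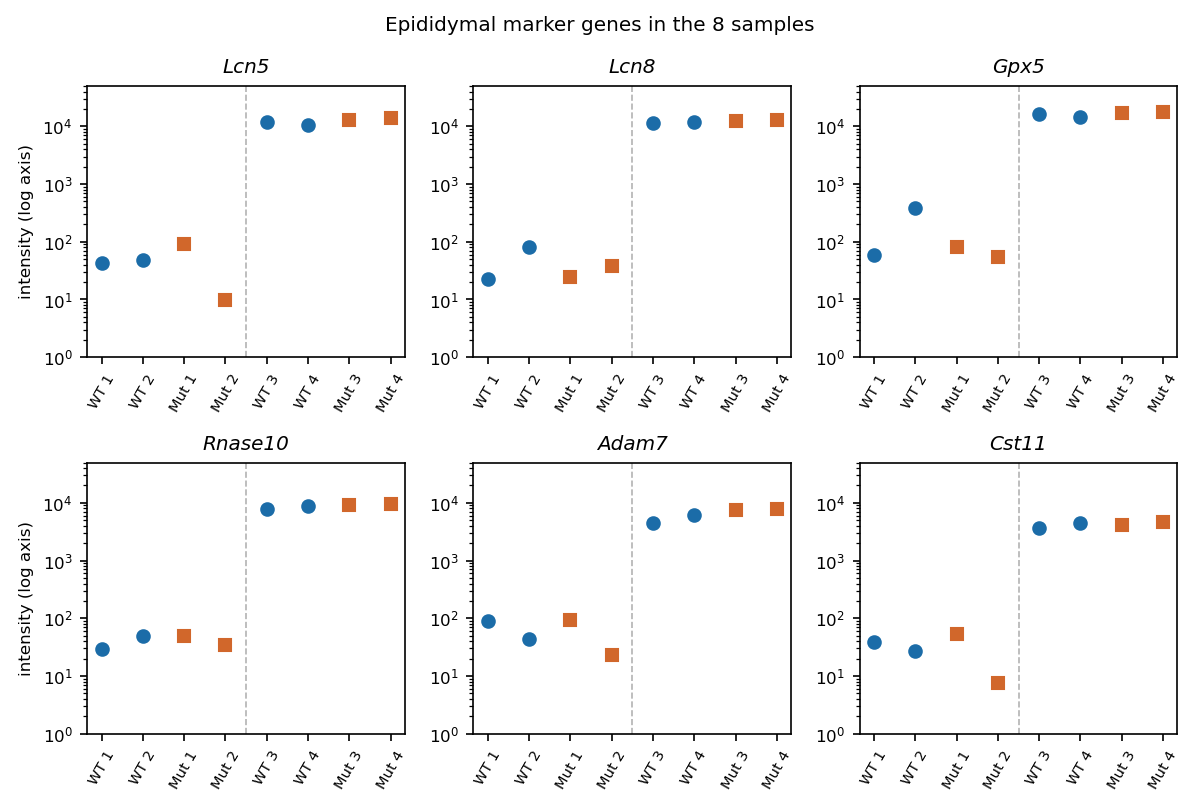
Intensity on a log axis of 6 epididymal marker genes in each sample, 1 point per mouse, with wild type as blue circles (WT), mutants as orange squares (Mut) and a dashed line between the replicate sets. All 4 points of replicates 3 and 4 lie between 3659 and 17600 for these genes, while those of replicates 1 and 2 lie between 7.52 and 389.4.

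Genes of the distal duct differed less evenly. In the list for corpus and cauda 3 of 4 measured genes were higher, with a median difference of 1.69. Crisp4, a cysteine-rich secretory protein that binds sperm, read 22.3, 8.22, 19.2 and 5.33 against 487.7, 479.1, 619.8 and 580.0, with no overlap (difference 4.26, SE 0.23, adjusted p = 7.8e-06). Ces5a, a secreted carboxylesterase, was already at 780.4 to 2576 in replicates 1 and 2 and reached 3876 to 6690 (difference 1.90, SE 0.35, adjusted p = 0.0034). Pate4 was higher by 1.07. It lost the call without any 1 of wild-type replicates 2 and 4 and mutant replicates 2, 3 and 4. Its adjusted p was largest, at 0.070, without mutant replicate 3. Cd52, a small glycopeptide that the cauda transfers to sperm, is also made by lymphocytes. It read 6564, 239.7, 5053 and 2270 against 4477, 5723, 5275 and 8369, so that the sets overlapped and it did not pass (1.47, SE 0.82, adjusted p = 0.21).

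The pattern of Cd52, low in wild-type replicate 2 and high in the other 7 samples, was looked for in all genes after its values had been seen. With a minimum of 3-fold below every other sample, 18 genes showed it, and 8 of these passed the test between the sets. Spink8, a Kazal-type protease inhibitor, read 5518, 279.8, 3845 and 1534 against 10810, 11020, 12380 and 15700. Npy, the neuropeptide Y gene, read 1107, 14.4, 1237 and 658.3 against 919.0, 1204, 1147 and 1971. Npy overlapped between the sets (adjusted p = 0.22), while Spink8 passed without an overlap (2.80, SE 0.74, adjusted p = 0.018, and 0.057 without mutant replicate 2). Defb42, a beta-defensin, read 1871, 169.8, 1717 and 769.6 against 12310, 12050, 13300 and 14860. It was thus low in wild-type replicate 2, intermediate in 3 samples and high in 4. Gpx3, a secreted glutathione peroxidase, and Cuzd1, Wfdc15b, Spink10, Ceacam10 and Shh were among the same 18.

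Among cell types of the duct, the basal cell list had 5 of 5 genes higher (median 1.5). The keratin gene Krt15 read 55.3, 7.24, 8.27 and 6.83 against 367.6, 413.4, 247.6 and 504.7 (difference 3.65, SE 0.36, adjusted p = 0.00033). Krt14 was higher by 2.22 and Trp63, the p63 transcription factor of basal epithelia, by 1.5. For clear cells, which acidify the lumen, 2 of 4 genes were higher. Foxi1, the transcription factor that specifies such proton-secreting cells, read 10.8, 21.3, 45.7 and 32.8 against 204.8, 171.0, 174.6 and 235.0 (2.34, SE 0.23), and the proton pump subunit Atp6v0d2 was higher by 2.26. The subunits Atp6v1b1 (-0.43, adjusted p = 0.54) and Atp6v0a4 (-0.43, adjusted p = 0.19) did not pass. Of 15 general epithelial genes 13 were higher, with a median of 1.64, St14, a membrane protease of epithelia, by 2.78 and Cdh1, which encodes E-cadherin, by 1.90. Epcam, at 1484 to 1824 against 3043 to 3817, was higher by 0.96.

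Efferent duct genes differed less, with 4 of 6 higher and a median of 0.80. Pax8, a transcription factor of the duct epithelium, read 131.1, 90.2, 182.8 and 130.7 against 293.1, 465.2, 439.3 and 503.1 (1.57, SE 0.20). The water channel gene Aqp1 was higher by 1.01 and Esr1, the estrogen receptor of these ducts, by 0.77. Cubn and Slc9a3, which serve uptake in the same epithelium, did not pass (-0.35 and -0.21). Of the 3 multiciliated cell genes, Foxj1, Ccno and Cdc20b, 0 passed in limma and 0 had an unadjusted p under 0.05. The genes of seminal vesicle and prostate had 0 of 8 higher and 1 lower (12.5%), near the 14.9% of all genes that were lower. The lower one was Svs5, a seminal vesicle protein, by 0.63. It lost the call without mutant replicate 4 (adjusted p = 0.13). Transcription factors that pattern the tract had 3 of 8 higher, Hoxa9 by 1.28, Emx2 by 0.95 and Lhx1 by 0.92. Lhx1, at 6.32 to 13.5 against 12.4 to 44.7, overlapped between the sets and lost the call without mutant replicate 4 (adjusted p = 0.099). The other probe sets of Hoxa9 (0.13) and Lhx1 (0.60) did not pass. With the probe set of the highest mean over replicates 1 and 2 for each gene, 1 of the 8 was higher.

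Among the 8 lipocalins measured, 5 were higher, namely Lcn8, Lcn5, Lcn9, Lcn12 and Lcn2, the last at 2144 to 3762 against 9736 to 11610 (1.83). Lcn3 (-0.26), Lcn11 (-0.22) and Lcn4 (-0.34) did not pass and read at most 71.6 in every sample, although their genes lie between those of the high members on the chromosome. Among 20 beta-defensins, a family of antimicrobial peptides, 12 were higher, 1 was lower and 7 did not pass. Defb15 read 6.99, 9.86, 4.68 and 3.80 against 412.7, 391.6, 585.9 and 651.2 (4.53, SE 0.21), and Defb21 and Defb29 were higher by 4.44 and 4.23. The lower one was Defb19, which is made in the testis, at 10550 to 15720 against 7632 to 8339 (-0.70, adjusted p = 0.0012). Of 7 Kazal-type inhibitors 4 were higher, led by Spink12 at 5.66 and Spink5 at 3.86, and Spink2, which is made in germ cells, was lower by 0.27. Cystatin genes did not move together. Beside Cst11, Cstdc2 was higher by 4.26, whereas Cst12, made in Sertoli cells, read 10780 to 16730 against 12020 to 13340 (-0.02, adjusted p = 0.91). Cst9 (-1.01), Cstdc1 (-0.61) and Cst3 (-0.22) did not pass either. The WAP family had 1 of 11 higher, Wfdc2 (0.80), and 2 lower, Wfdc1 (-0.71) and Wfdc15a (-0.54), beside 17.4% and 14.9% of all genes. These numbers are near those shares or below them, and 2 WAP genes were higher without wild-type replicate 1.

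Outside the lists, the gene with the largest difference was Muc15, a membrane mucin, at 3.34, 2.76, 13.7 and 1.19 against 2683, 3241, 3848 and 3643 (7.33, SE 0.18, adjusted p = 7.3e-08). Teddm2 (6.04), Spint4, a Kunitz-type inhibitor (5.53), Epp13 (5.44), and Pate6 and Pate5, small secreted proteins of the Ly6 type (5.32 and 5.06), followed. Adgrg2, a receptor of the efferent ducts and proximal epididymis, read 45.5, 179.1, 215.6 and 303.6 against 3376, 3832, 4207 and 4672 (4.54). The glutamate transporter Slc1a1 was higher by 4.24, the claudin Cldn2 by 4.17 and the kidney-type cadherin Cdh16 by 3.63. Ido1, which breaks down tryptophan, was higher by 3.86 and the transcription factor Egr2 by 3.65, at 46.2 to 77.3 against 826.9 to 1088.

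Fat genes were higher in 11 of 12 measured, with a median difference of 2.37, and differed within replicates 1 and 2 in another way than the duct genes. Adipoq, the adipocyte hormone adiponectin, read 683.1, 2399, 3052 and 2711 against 9119, 10270, 10090 and 11960 (2.41, SE 0.35, adjusted p = 0.0013). Fabp4, a fatty acid carrier, read 414.7, 3118, 4729 and 3495 against 14550, 16480, 17170 and 18860 (2.94, SE 0.55, adjusted p = 0.0038). Lpl, which releases fatty acids from lipoproteins, read 318.4, 2827, 3661 and 2545 against 10590, 12820, 13300 and 15250 (2.90). Wild-type replicate 1 was the lowest of all 8 samples for all 12 fat genes. For Adipoq, Fabp4 and Lpl the other 3 samples of replicates 1 and 2 lay between it and replicates 3 and 4. The fatty acid transporter Cd36 had the largest difference, at 186.6 to 435.6 against 1662 to 3060 (3.02), and Lep, the leptin gene, was the one that did not pass (0.60, adjusted p = 0.21). The summed intensity of the list was 5619 to 33340 against 74530 to 109800. Without wild-type replicate 1, as without each other sample in turn, 10 to 11 of the 12 passed.

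**Figure D2:**
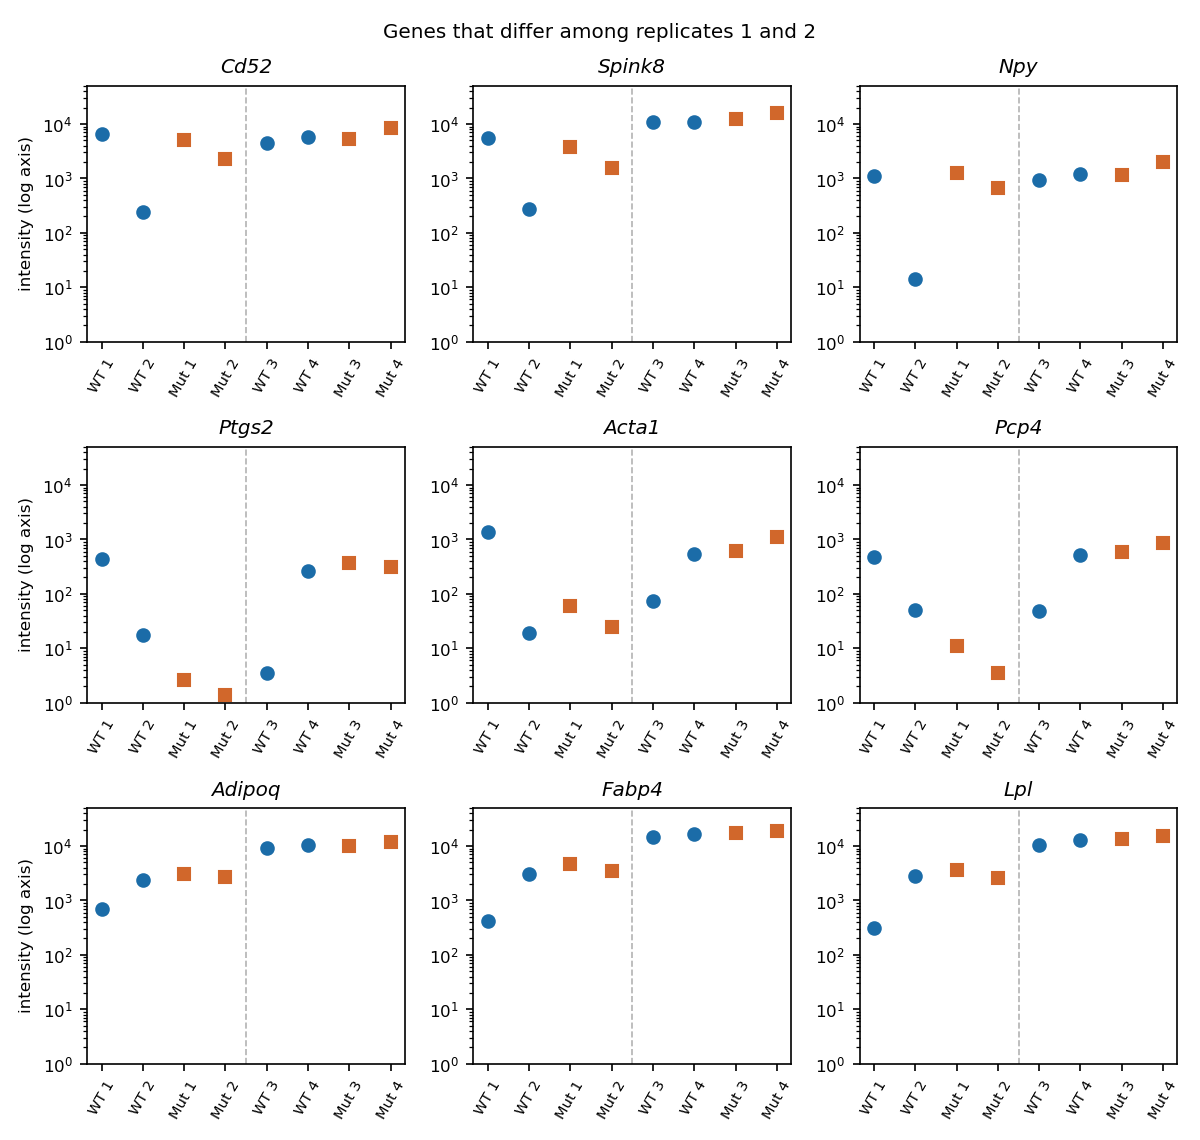
Intensity on a log axis of 9 genes in each sample, 1 point per mouse, with wild type as blue circles (WT), mutants as orange squares (Mut) and a dashed line between the replicate sets. Cd52, Spink8 and Npy are lowest in wild-type replicate 2 (14.4 to 279.8), Ptgs2, Acta1 and Pcp4 are high in wild-type replicate 1 and low in wild-type replicate 3, and Adipoq, Fabp4 and Lpl are lowest in wild-type replicate 1 (318.4 to 683.1).

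Fibroblast and matrix genes were higher in 14 of 17, with a median of 0.68, and lower in 1. Postn, the matrix protein periostin, read 220.9, 346.4, 152.6 and 247.5 against 1108, 2475, 2334 and 2557 (3.03, SE 0.31, adjusted p = 0.00036). Ogn, a small proteoglycan, was higher by 2.70, and its relatives Lum by 2.17 and Dcn by 1.37. Wild-type replicate 3 was the lowest of the 4 high samples for Postn and Ogn. Col1a1, a chain of type I collagen, read 510.9 to 804.1 against 1442 to 2747 (1.62). Col1a2 and Col3a1, already at 5672 to 10370 in replicates 1 and 2, were higher by 0.60 and 0.49, and lost the call without mutant replicate 4 (adjusted p = 0.060 and 0.093). Sparc was lower by 0.23 as deposited, but its sign turned under quantile normalization (0.02) and with the mean of its probe sets (0.13). The number of higher genes was 11 under quantile normalization and 7 with arrays centred on their medians. Leaving out wild-type replicate 4 or mutant replicate 2 left 9, and leaving out mutant replicate 4 left 8. Genes of mesothelium, the cell layer that covers testis and epididymis, were higher for 3 of 5, with Upk1b at 53.7 to 77.7 against 209.0 to 306.4 (1.79, SE 0.16), Upk3b higher by 0.88 and Muc16 by 0.82.

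Muscle genes did not separate the sets cleanly. Of 14 smooth muscle genes 2 passed, both higher: Myh11, the smooth muscle myosin, by 1.13 (adjusted p = 0.034) and the actin-binding Cald1 by 0.70 (adjusted p = 0.036). The 2 genes are 14.3% of the list, near the 17.4% of all genes that were higher. The list's median was 0.56. Cnn1, a calponin of smooth muscle, read 1586, 263.2, 291.6 and 346.9 against 524.7, 1099, 1110 and 1572 and overlapped between the sets (1.11, adjusted p = 0.16). Wild-type replicate 1 was high and wild-type replicate 3 was low in their sets. Without wild-type replicate 1 the count of higher smooth muscle genes was 9, and without wild-type replicate 3 it was 4. Without any 1 of the other 6 samples, with arrays centred on their medians, or with the variance fitted robustly or without an intensity trend, it was 0. Within the mutants 9 passed and within the wild type 0, although none of the differences between genotypes passed. For Actg2, the actin of visceral smooth muscle, the values were 4796, 2764, 391.0 and 935.6 against 3542, 3730, 3504 and 4071. Its difference was 2.61 larger in the mutants (SE 0.54, adjusted p = 0.77).

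Of 23 skeletal muscle genes 2 were higher, the myosin light chain Myl1 by 1.10 and the calcium store protein Casq1 by 1.00. Actn3 (-0.71) and Ryr1 (-0.60) were lower. Each direction held 8.7% of the list, below the 17.4% and 14.9% of all genes. Myl1 lost the call without mutant replicate 2 (adjusted p = 0.062) and Ryr1 without mutant replicate 3 (adjusted p = 0.15). Acta1, the skeletal muscle actin, read 1344, 19.4, 58.7 and 24.9 against 73.8, 546.8, 615.7 and 1110 and did not pass (1.98, SE 1.19, adjusted p = 0.24). The creatine kinase gene Ckm read 308.8, 68.4, 60.3 and 72.9 against 34.3, 141.6, 138.1 and 230.8 and did not pass (0.17, adjusted p = 0.86). For both, wild-type replicate 1 was the highest sample of its set and wild-type replicate 3 the lowest of its own. A search made after these values were seen, for genes at least 4-fold higher in wild-type replicate 1 than in each other sample of replicates 1 and 2, gave 8 genes. They were Tpm2, Cnn1, Acta1, Krt19, Pgm5, Pcp4, Ptgs2 and Elf5. Wild-type replicate 3 was the lowest of replicates 3 and 4 for all 8. Ptgs2, the inducible cyclooxygenase, read 430.6, 17.6, 2.57 and 1.36 against 3.58, 262.8, 374.4 and 315.3. Krt19 and Elf5, which are epithelial genes, stand in this group beside the muscle genes, and were the 2 of the 8 that passed (1.84 and 1.59). Without mutant replicate 4 the adjusted p of Krt19 was 0.057.

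Vessel genes showed small differences. Of 18 endothelial genes 5 were higher (27.8%) and 1 was lower (5.6%), beside 17.4% and 14.9% of all genes, with a median of 0.33. Plvap, a protein of capillary diaphragms, read 109.6, 85.01, 103.6 and 166.1 against 229.0, 327.1, 236.5 and 412.4 (1.26, SE 0.23, adjusted p = 0.0034). Emcn, a sialomucin of capillary and venous endothelium, was higher by 1.17, and the receptors Tek and Flt1 by 0.80 and 0.61. The 3 other probe sets of Flt1 differed by 0.39, 0.21 and -0.15 and did not pass. Pecam1 (-0.03), Cdh5 (0.39) and Kdr (0.53), which mark endothelium in general, did not pass, and Cldn5, a tight junction claudin, was lower by 0.47. Tek and Cldn5 lost the call without mutant replicate 3 (adjusted p = 0.058 and 0.072). Under quantile normalization and with arrays centred on their medians, 2 were higher and 2 lower, and the number of higher genes was 3 without wild-type replicate 1 or without mutant replicate 4. Of 6 pericyte genes 3 (50%) were higher, beside 17.4% of all genes. Rgs5, a regulator of G protein signalling, read 308.4, 376.3, 400.4 and 297.8 against 610.9, 1433, 1212 and 1266 (1.61, SE 0.24).

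**Figure D3:**
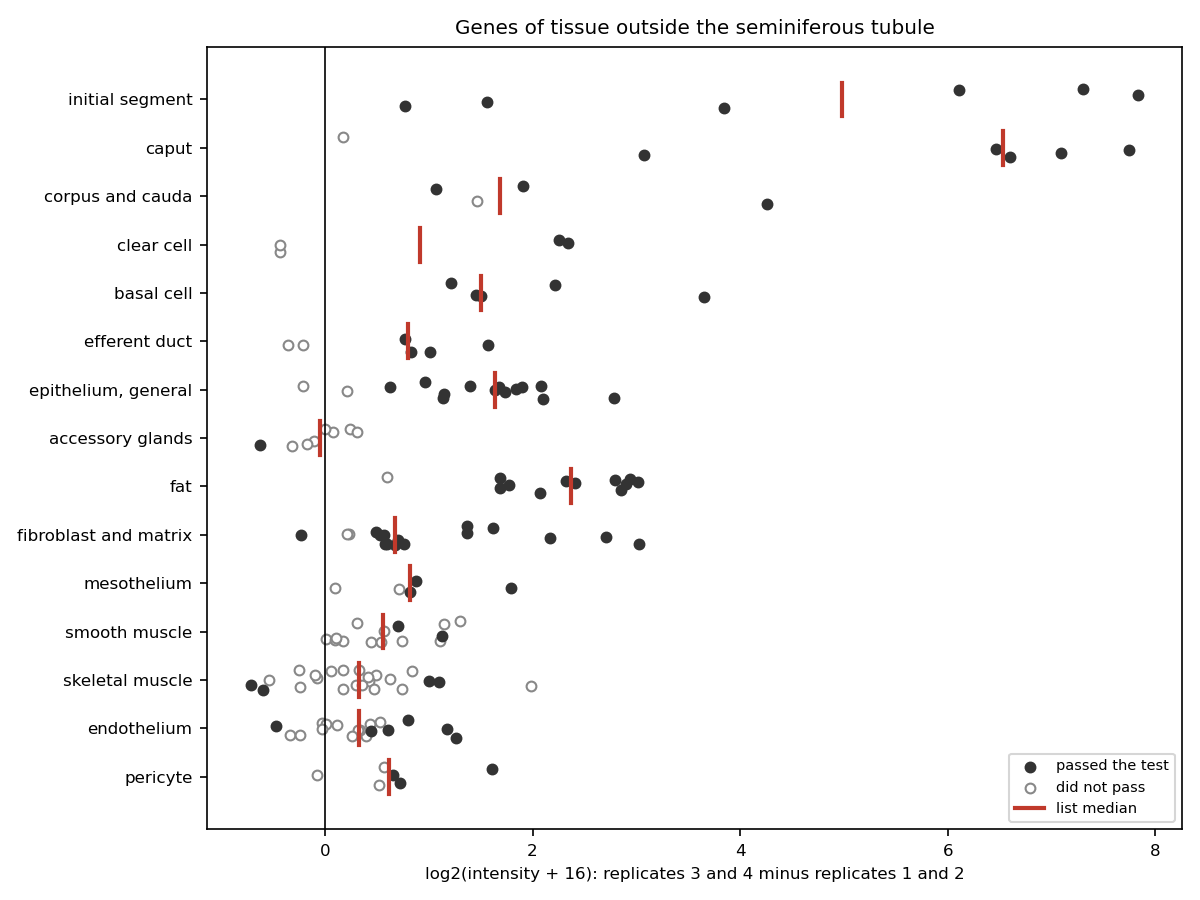
Difference between the replicate sets, replicates 3 and 4 minus replicates 1 and 2 in log2(intensity + 16), for the genes of each list of tissue outside the seminiferous tubule, 1 point per gene, filled where the gene passed the test and open where it did not, with a red line at each list's median. The initial segment and caput lists have medians of 4.98 and 6.53, fat 2.37 and general epithelium 1.64, while smooth muscle, skeletal muscle and endothelium lie at 0.56, 0.33 and 0.33.

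Among blood and immune cells, macrophage genes differed in both directions, with 3 of 14 higher and 5 lower, beside 17.4% and 14.9% of all genes. The number higher is near that share. The lower ones were the complement genes C1qa, C1qb and C1qc, the receptor Csf1r and the lysosomal Cd68. C1qa read 2148, 1653, 2441 and 2178 against 1102, 1253, 1280 and 1317 (-0.75, SE 0.11, adjusted p = 0.0013). The higher ones were H2-Aa (0.82) and H2-Eb1 (0.56), which present antigen, and Ptprc, the pan-leukocyte CD45 (0.93). Of the other 3 probe sets of H2-Aa, 2 differed in the opposite direction (-0.58 and -0.02) and did not pass, and 1 differed by 0.60. Without mutant replicate 4 the adjusted p was 0.080 for H2-Eb1 and 0.13 for Ptprc, and without mutant replicate 3 it was 0.054 for Cd68. Under quantile normalization, median centring or the mean of all probe sets of a gene 1 of the 14 was higher, as it was when any of wild-type replicate 1, mutant replicate 2 and mutant replicate 4 was left out. Of 9 lymphocyte genes 0 passed in limma and 0 had an unadjusted p under 0.05. Of 6 nerve genes 0 passed, and 1, the myelin gene Mbp, had an unadjusted p under 0.05. Of 3 red cell genes Slc4a1, an anion exchanger of the membrane, was lower (-0.66), with an adjusted p of 0.060 without wild-type replicate 4.

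The Sertoli and Leydig cell genes that passed were all lower in replicates 3 and 4. Of 14 Sertoli cell genes 6 were lower (42.9%) and 0 higher, beside 14.9% and 17.4% of all genes, with a median of -0.43. Inha, the inhibin alpha chain, read 9466, 8015, 12580 and 10630 against 5909, 5886, 6226 and 6254 (-0.72, SE 0.10, adjusted p = 0.00096). Dhh, the hedgehog ligand of Sertoli cells, was lower by 0.91, and the receptor for follicle-stimulating hormone, Fshr, by 0.57, the last with an adjusted p of 0.11 without mutant replicate 4. Sox9 (-0.11) and Rhox5 (-0.25) did not pass. The number of lower Sertoli genes was 3 without mutant replicate 3 or mutant replicate 4, and 0 within the wild type. It was 6 under quantile normalization and 8 with arrays centred on their medians, where 4845 of all genes were lower. Of 5 Leydig cell genes 2 (40%) were lower, beside 14.9% of all genes. Cyp11a1, the first enzyme of steroid synthesis, read 4209 to 5513 against 2508 to 3254 (-0.82, SE 0.11). Star, the cholesterol carrier, was lower by 0.73, but its other 2 probe sets differed by 0.06 and -0.12. With the mean of all probe sets of a gene 0 of the 5 Leydig genes passed in limma: the log2 difference of Cyp11a1 was then -0.42 (adjusted p = 0.063) and the log2 difference of Star -0.26 (adjusted p = 0.23). Cyp17a1 (-0.39) and Hsd3b1 (-0.07) did not pass.

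Germ cell genes differed in both directions, also among genes listed for the same stage. Of 15 spermatogonial genes 6 were lower (40%) and 1 was higher (6.7%), beside 14.9% and 17.4% of all genes, with a median of -0.40. The number lower was 4 to 7 with 1 sample left out, 9 under quantile normalization and 10 with arrays centred on their medians. It was 5 within the mutants and 1 within the wild type, where 31 of all genes were lower. Dmrtb1, which controls the step from mitosis to meiosis, read 5586, 5199, 5552 and 6533 against 3576, 2553, 2516 and 2680 (-1.02, SE 0.13, adjusted p = 0.00079). Id4, a marker of spermatogonial stem cells, was lower by 0.91, Rhox13 by 0.96 and Uchl1 by 0.77. Gfra1, the receptor for the niche factor GDNF, went the other way, at 147.7, 126.6, 160.2 and 126.5 against 602.3, 636.2, 579.5 and 703.7 (2.05, SE 0.14, adjusted p = 4.1e-05). Its 2 other probe sets differed by 0.67, which did not pass, and 1.16. Kit and Stra8, which mark differentiating spermatogonia and entry into meiosis, did not pass (-0.18 and 0.04).

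Genes of leptotene and zygotene, the early steps of meiotic prophase, were higher for 9 of 16 and lower for 1, with a median of 0.56. These are 56.25% and 6.25% of the list, beside 17.4% and 14.9% of all genes. Tex15, which acts in double-strand break repair and transposon silencing, read 208.1, 285.7, 86.6 and 185.3 against 1424, 1836, 2002 and 1714 (3.18, SE 0.27, adjusted p = 0.00016). Smc1b, the meiotic cohesin, read 340.2, 694.8, 351.8 and 309.6 against 1877, 2658, 2794 and 2392 (2.54, SE 0.24). The synaptonemal complex genes Sycp2 and Sycp1 were higher by 2.21 and 1.97 and Sycp3 by 0.56. Other genes of the same steps did not follow. Dmc1 (-0.15), Prdm9 (-0.26), Mei1 (-0.15), Rec8 (-0.29), Syce1 (0.17) and Syce2 (0.06) did not pass, and Syce3 was lower at 4077 to 4727 against 2271 to 2935 (-0.80, SE 0.10). The 4 genes with the largest differences, Tex15, Smc1b, Sycp2 and Sycp1, were thus 3.9-fold to 9.0-fold higher, while Dmc1 and Prdm9 of the same steps were not. Of 15 pachytene and diplotene genes 5 were lower (33.3%) and 0 higher, beside 14.9% and 17.4% of all genes. Pou5f2 was lower by 0.88, the meiotic cyclin Ccna1 by 0.59, Dmrtc2 by 0.47 and the chaperone Hspa2 by 0.44. Ldhc, a lactate dehydrogenase of germ cells, was lower by 0.29, at 25540 to 28890 against 19630 to 22460. Its other probe set differed by -0.18 and did not pass. The number lower in this list was 5 under quantile normalization, with 1 higher, and 10 with arrays centred on their medians. It was 4 within the mutants and 0 within the wild type.

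**Figure D4:**
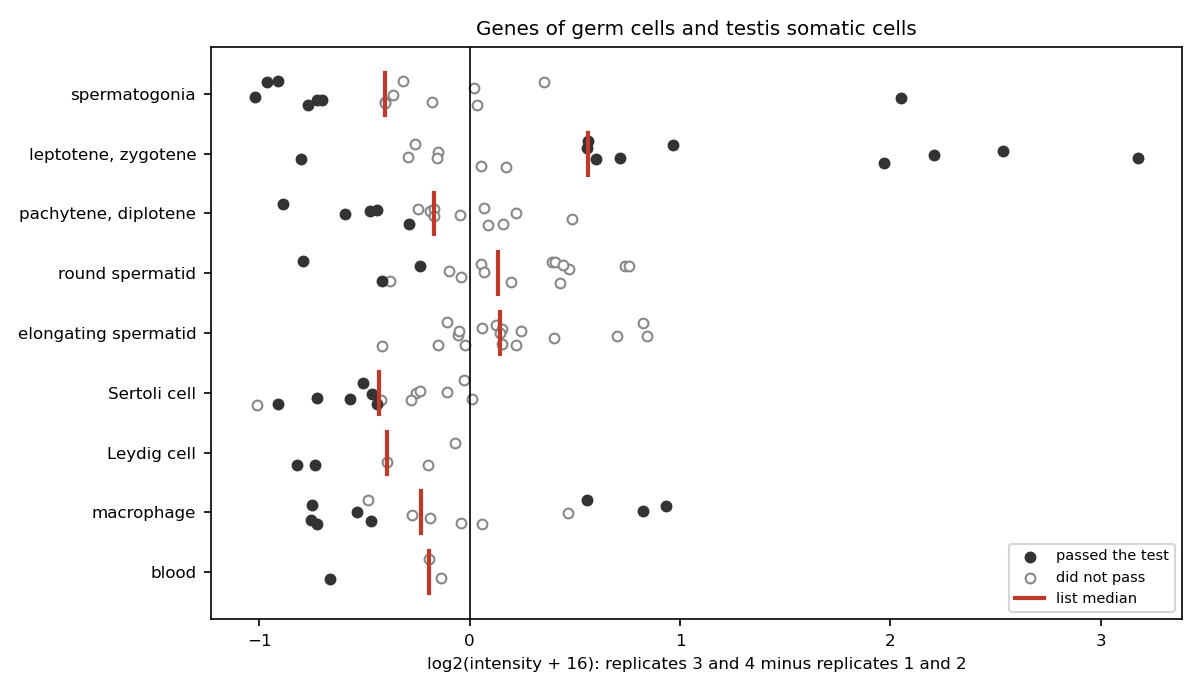
Difference between the replicate sets, replicates 3 and 4 minus replicates 1 and 2 in log2(intensity + 16), for genes of germ cell stages and somatic cells, 1 point per gene, filled where the gene passed the test and open where it did not, with a red line at each list's median. Leptotene and zygotene genes reach 3.18 with a median of 0.56, while the medians of spermatogonia, Sertoli cells and Leydig cells lie at -0.40, -0.43 and -0.39.

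Round spermatid genes had 0 of 16 higher and 3 lower, beside 17.4% and 14.9% of all genes. The number lower, 18.75% of the list, is near that share. The lower ones were Dkkl1 by 0.79, Zpbp by 0.41 and Zpbp2 by 0.23. Zpbp2 had an adjusted p of 0.13 without mutant replicate 4. Its 1 other probe set differed in the opposite direction and did not pass. The acrosomal gene Acrv1 read 3004, 4348, 392.1 and 1842 against 4307, 3103, 2043 and 2772 and overlapped (0.74, adjusted p = 0.26). Elongating spermatid genes had 0 of 17 that passed in limma, 0 at an unadjusted p under 0.05 and a median of 0.15, which was -0.09 with arrays centred on their medians. Single samples differed far more than the sets. Prm1, a protamine that packs sperm DNA, read 24460, 26040, 573.6 and 6100 against 19450, 14980, 1693 and 3407 (-0.11, SE 0.60, adjusted p = 0.92). Mutant replicate 1 was the lowest sample, and both wild-type samples of each set were above both mutants. Without mutant replicate 1 the median was -0.51 and 4 of the 17 genes were lower, among them Tnp2 (-0.75, adjusted p = 0.042), whose value with all samples was 0.13. The list's median was -0.55 within the wild type and 0.77 within the mutants. All 17 genes had the higher difference between the sets in the mutants, by 0.81 to 1.94, and none of these differences between genotypes passed (smallest adjusted p = 0.77).

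The difference between the sets was tested for dependence on genotype over all genes. In limma 0 of 18193 genes (0%) passed, with 993 at an unadjusted p under 0.05, and without mutant replicate 2 the number was 228. Each of the 6 marker genes had the higher difference in the mutants, and their adjusted p for dependence on genotype in limma ran from 0.77 for Gpx5 to 0.96 for Rnase10. Lcn8 differed by 7.59 in the wild type and 8.07 in the mutants, Lcn5 by 7.52 and 7.97, Rnase10 by 7.27 and 7.33, Gpx5 by 6.46 and 7.72, Adam7 by 6.04 and 6.89 and Cst11 by 6.40 and 6.79. Fat genes had a median of 2.90 in the wild type and 1.82 in the mutants. Leptotene and zygotene genes had medians of 0.39 and 0.62.

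**Figure D5:**
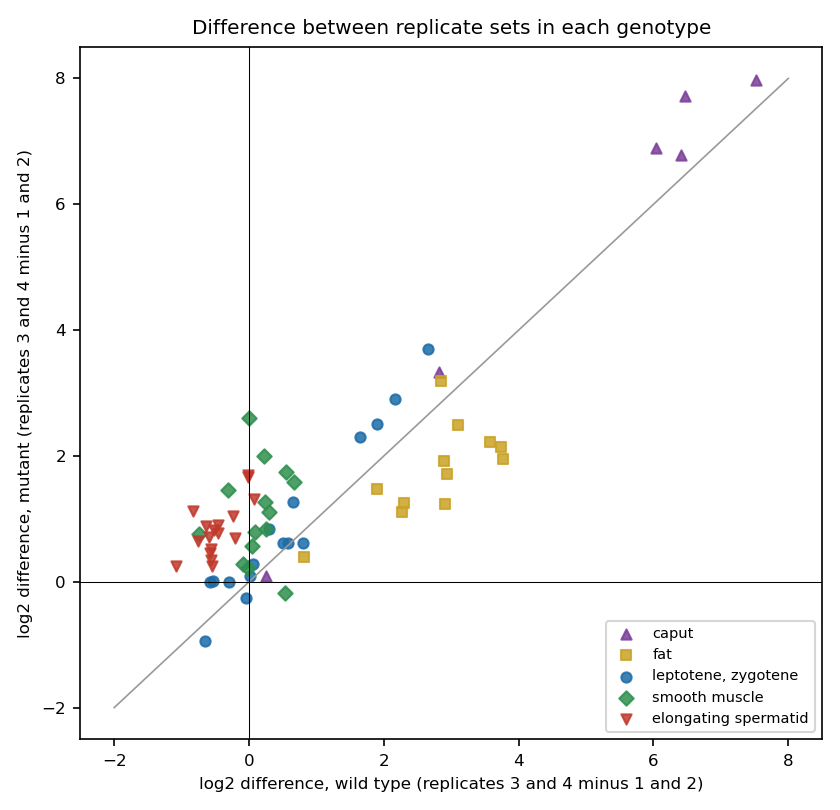
Difference between the replicate sets in log2(intensity + 16) within the wild type (horizontal) and within the mutants (vertical), 1 point per gene of 5 lists, with the line of equal differences in grey. Caput genes lie near the line at medians of 6.22 and 6.84, while all 17 elongating spermatid genes lie above it.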

How the data were processed

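RNA from whole testis of 8 mice was labelled as biotin cRNA and hybridised to 1 Affymetrix array each, per the labels' protocols. The authors made the deposited intensity values, which are on a linear scale, with the GCOS software, as the submitters' processing notes say. No version or setting is named there. The arrays had been scaled to a common target, since without the top and bottom 2% of its probe sets each one averages 500. Differences in the shape of the distribution remain.

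Of 45101 probe sets, 64 controls were kept apart, and 34945 had 1 gene symbol. The probe set with the highest mean stood for its gene, which gave 18193 genes. Of 180 list genes that passed, 78 had another probe set, 24 had one of the opposite sign and 1 had one that passed in the opposite direction. For genes outside the lists the other probe sets were not compared. No filter on low values was used, since genes at background in one set would pass it through the other. log2(intensity + 16) was fitted with limma 3.58.1 (R 4.3.3; lmFit, eBayes with trend), two-sided, with genotype and replicate set as terms, or with their product. Figures were drawn with matplotlib 3.10.9. Simulated data of the comparison between the sets held 18193 genes with independent noise, 100 changed by 1 and 100 by 2 on the log2 scale. There 54% of changes of 1 and 88% of changes of 2 were recovered, with 2 false calls. In the data 32.3% of genes passed and noise may be shared between genes, so these rates need not hold for this comparison.

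Samples of the same replicate number deviated together from the mean of their genotype (correlations 0.41, 0.53, 0.46 and 0.50 for numbers 1 to 4), but these deviations hold the difference between the sets. With the sets in the fit, the correlation within a number was -0.0645. The labels do not say what a shared number stands for. A fixed replicate block lies within the sets, so a random block was tried as an alternative. Each array is 1 mouse, and their number limits the precision. Up to 5 genes with the largest difference and 3 with the highest level were named first in each list, with the 6 markers in every sample, the 20 largest changes in each direction outside the lists and the 10 smallest p-values for genotype dependence. The split, the members and the lists were chosen with earlier results of these data known, so they are described by counts and medians and not tested as lists. For the same reason the adjusted p-values of single genes and the share of genes that passed give no independent test of the split.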

Additional observations from a re-analysis of the deposited data

Results flagged for a closer look

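Within each set of 4 samples, 162 groups of values were searched for a sample that stood apart from the other 3, and 19 did. Chance gives about 1 in 20, or 5% of groups, where groups are independent and not chosen by their values. Here some genes, such as Ptgs2 and Pcp4, came from the search for genes high in wild-type replicate 1. List means also share genes with single-gene groups, such as smooth muscle with Cnn1. The number 19 therefore cannot be set against that rate. None of the 19 was given an explanation here.

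Wild-type replicate 1 stood high within replicates 1 and 2 for Acta1 (1344 against 19.4 to 58.7), Cnn1 (1586 against 263.2 to 346.9), Ptgs2 (430.6 against 1.36 to 17.6), Pcp4 (483.2 against 3.54 to 50.7), Krt19 (575.8 against 89.4 to 113.8) and Krt15 (55.26 against 6.83 to 8.27). Its mean log2 level over the smooth muscle list was 10.76 against 9.37 to 9.59. Wild-type replicate 2 stood high for Gpx5 (389.4 against 54.3 to 79.7) and Smc1b (694.8 against 309.6 to 351.8). Mutant replicate 1 stood low for Sycp1 (588.9 against 941.6 to 979.1) and high in the mean log2 levels of the fibroblast list (10.07 against 9.69 to 9.74) and the blood list (6.966 against 6.59 to 6.62). Mutant replicate 2 stood low in the lymphocyte list (5.643 against 5.89 to 5.90).

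Within replicates 3 and 4, wild-type replicate 3 stood low for Pck1 (530.6 against 944.0 to 988.9), Postn (1108 against 2334 to 2557) and Ogn (764.3 against 1707 to 1838). It stood high for Dmrtb1 (3576 against 2516 to 2680) and Dnajb1 (9532 against 7445 to 7662). Mutant replicate 4 stood high in the mean log2 level of the general epithelial list (9.788 against 9.54 to 9.55).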

How the results depend on the processing

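As deposited, 3166 genes were higher and 2710 lower. The counts were 1951 and 4845 with arrays centred on their medians, 267 and 31 within the wild type, 1931 and 1759 within the mutants, and 1886 and 1457 at an adjusted p of 0.01. Leaving out 1 sample gave 2315 to 3287 higher and 1782 to 2743 lower. It gave 0 to 228 genes whose difference depended on genotype. The initial segment median (4.98) was 4.74 with median centring, 5.45 with a pseudocount of 1, 4.14 with 64, 6.11 for probe sets above the 40th percentile, 4.43 with probe sets averaged, 5.26 within the wild type and 4.7 within the mutants. The caput median (6.53) was 7.08 and 5.61 with pseudocounts of 1 and 64 and 6.17 to 6.77 with 1 sample left out. It was 0.172 where the lowest sample had to pass the filter, which kept Eppin alone. The sign of Sparc turned under quantile normalization (0.0168) and with probe sets averaged (0.13), as did Ttn (0.612) and Cspg4 (0.603) with probe sets averaged. The log2 difference of Tnp2 ran from -0.752 to 0.702 with 1 sample left out. Without replicate number 1 of both genotypes, an alternative chosen after the data were seen, the log2 difference of Tnp2 was -0.862 and the log2 difference of Spem1 -1.04. The cause was not tested. With the random replicate block 3333 genes were higher and 2859 lower, and 0 differences depended on genotype. Of 192 named genes that passed, 151 passed without each sample in turn. Where a single omitted sample is named beside a lost call, its omission gave the largest adjusted p. The call may be lost without other samples too. Dim probe sets limit the size of the largest differences, since their low values cannot be set against background.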

Other observations

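The genes lower in replicates 3 and 4 had smaller differences than the higher ones, also outside the lists. Nr4a2, a nuclear receptor induced early after a stimulus, read 184.6, 133.3, 198.9 and 198.5 in replicates 1 and 2 against 15.6, 68.2, 88.8 and 17.8 in replicates 3 and 4 (-1.80, SE 0.39, limma adjusted p = 0.0076). Exosc8, a subunit of the RNA exosome, read 2579, 1980, 2468 and 2524 against 839.4, 720.1, 683.5 and 753.8 (-1.65, SE 0.12). The samples of each set lay close together for Exosc8, with no overlap. The nucleoside transporter Slc29a1 was lower by 1.23, as was the intramembrane protease Sppl3. Trem2, a receptor of macrophages, was lower by 1.38, Dock2, which serves leukocyte migration, by 1.31 and the hemoglobin gene Hba-a2 by 1.32. Ankrd55 (-1.81), Cela3b (-1.57), Myo1h (-1.56) and 1700063D05Rik (-1.88) had the largest other differences. Each gene here is read by 1 probe set. Nr4a2 has 6, Cela3b 4, Dock2 and Sppl3 3, and Exosc8, Trem2 and 1700063D05Rik 2, and their other probe sets were not compared.

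Ribosomal protein genes, which every cell uses, went mostly lower as deposited, with 21 of 42 lower and 3 higher. The count depended on the scaling, since quantile normalization gave 5 lower and 5 higher, and median centring 30 lower and 2 higher. Under each of the 3 scalings some members were higher and others lower. Rps4x read 2524 to 3045 against 7501 to 9596 (1.57, SE 0.08) and Rpl7 was higher by 0.96, while Rpl27a read 1687 to 2207 against 646.3 to 816.8 (-1.41, SE 0.12) and Rplp0 was lower by 0.67. Rps4x and Rpl27a each had 1 other probe set, which differed in the opposite direction and did not pass. The 2 other probe sets of Rpl7 differed in the same direction as the one used. Such genes have near-identical copies, and a probe set may read more than 1 of them. Of 14 immediate early and stress genes Egr1 was higher (0.86, adjusted p = 0.040), a call lost without wild-type replicate 1 (adjusted p = 0.097) and under both other scalings. Dnajb1, a heat shock cochaperone, was lower (-0.69). Each direction held 7.1% of the list, below the 17.4% and 14.9% of all genes. Without wild-type replicate 4 the number of higher genes in this list was 4.

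Of the 10 genes with the smallest p-values for a dependence on genotype, 9 read at most 139.7 in every sample. For 1700128F08Rik the values were 87.7, 67.0, 12.8 and 24.8 against 23.0, 15.7, 82.4 and 77.8, and for Igfbp1, an insulin-like growth factor binding protein, 5.53, 7.12, 68.6 and 41.5 against 22.8, 50.9, 9.17 and 7.47. Neither passed (adjusted p = 0.77 for both). Actg2, the visceral smooth muscle actin, was the exception, at 2764 to 4796 in 6 of 8 samples and at 391.0 and 935.6 in mutant replicates 1 and 2.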
